A study of Mus musculus with 12 samples.

Results

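Small nucleolar RNA (snoRNA) genes were taken as the rows named Snord or Snora followed by a number, at most 1 letter and further digits, that reached at least 1 TPM in at least 1 of 12 libraries. TPM is a share of a library's transcripts scaled by the length of each row. Of 113 rows with such a name, 51 met this rule, among 55416 genes listed for every library. They comprised 23 of 76 box C/D rows (Snord) and 28 of 37 box H/ACA rows (Snora). The members were thus chosen by their TPM, so being above 0 somewhere is not a result. The threshold had no effect on the choice, because each row above 0 in any library also reached 1 TPM. The members with the lowest maxima were Snora74a at 2.81 TPM, Snord17 at 3.54 TPM and Snora23 at 7.57 TPM. The other 62 rows, 53 box C/D and 9 box H/ACA, were listed at 0 in all 12 libraries.

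The libraries were of HM1, a murine ovarian cancer cell line, and of tumors formed by its derivatives. They fell into 4 groups of 3 libraries. Knockdown cultures were HM1 cells with the shST3GAL3 hairpin (genotype ST3GAL3 knockdown), and control cultures were HM1 cells with the shControl hairpin, labelled wild type although they carry that hairpin. Knockdown tumors and control tumors were tumor tissues with these hairpins. The number of hairpin sequences or clones, the host animals and their strain and age, and whether the 3 samples of a group were separate cultures or animals are not stated in the labels. P-values thus speak of the spread among the samples at hand, and that spread may be technical.

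SnoRNAs are short noncoding RNAs of the nucleolus, most of them cut from introns of host genes during splicing. Box C/D snoRNAs pair with ribosomal or spliceosomal RNA and guide 2′-O-methylation by fibrillarin, whereas box H/ACA snoRNAs guide pseudouridylation by dyskerin. A few of either class, such as U3 and U17, take part in cleaving the precursor of ribosomal RNA. Mature snoRNAs mostly lack a poly(A) tail. Whether the libraries were selected for poly(A) or depleted of ribosomal RNA, and which fragment sizes were kept, is not stated there either.

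The sequences below show the class boxes and the rows whose values the results turn on. They are transcript sequences of GENCODE M21 (build GRCm38) found by gene identifier; the tables were made with GRCm39, so no coordinates are given. In the first group the capitals mark the first TGATGA and the last CTGA, which match the C and D boxes, or the ACA that stands 3 bases before the end of a box H/ACA snoRNA. Snord12 lies on chromosome 2 in Zfas1, a noncoding gene, where the only exons it overlaps are those of transcripts that keep an intron. Snord32a lies on chromosome 7 in Rpl13a, Snord15b on chromosome 7 in Rps3, Snord3a (U3) on chromosome 10 outside any host gene, and Snora75 on chromosome 1 in Ncl, which encodes nucleolin.
Snord12: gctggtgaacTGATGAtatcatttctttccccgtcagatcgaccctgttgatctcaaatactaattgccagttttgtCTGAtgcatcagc
Snord15b: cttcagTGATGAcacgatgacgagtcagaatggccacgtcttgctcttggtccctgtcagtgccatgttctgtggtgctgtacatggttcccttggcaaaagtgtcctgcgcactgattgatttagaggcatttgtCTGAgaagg
Snord3a: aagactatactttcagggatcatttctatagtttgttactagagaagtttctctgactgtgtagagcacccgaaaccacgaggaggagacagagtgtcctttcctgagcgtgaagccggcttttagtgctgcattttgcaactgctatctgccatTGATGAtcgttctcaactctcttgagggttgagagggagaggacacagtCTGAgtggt
Snord32a: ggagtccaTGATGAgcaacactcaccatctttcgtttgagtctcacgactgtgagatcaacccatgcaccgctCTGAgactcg
Snora75: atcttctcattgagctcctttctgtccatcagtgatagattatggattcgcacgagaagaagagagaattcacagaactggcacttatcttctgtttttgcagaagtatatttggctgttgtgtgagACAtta
The next sequence is the longer of 2 rows named Snora43, on chromosome 2. Its capitals mark the 12 bases that the shorter row, of 127 bases, does not hold.
Snora43: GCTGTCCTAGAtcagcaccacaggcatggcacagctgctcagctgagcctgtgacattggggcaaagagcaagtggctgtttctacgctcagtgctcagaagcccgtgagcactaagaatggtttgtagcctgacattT
The last pair is Snora73a and Snora73b, 2 copies of U17 on chromosome 4 in the noncoding host gene Snhg3. Their capitals mark the 7 of 205 positions at which they differ, so reads of the 2 rows can be told apart at few positions and their separate values are uncertain.
Snora73a: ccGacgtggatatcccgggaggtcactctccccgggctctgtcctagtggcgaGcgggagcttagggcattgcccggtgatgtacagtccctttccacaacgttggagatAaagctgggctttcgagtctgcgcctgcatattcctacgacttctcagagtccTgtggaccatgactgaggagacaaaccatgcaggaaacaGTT
Snora73b: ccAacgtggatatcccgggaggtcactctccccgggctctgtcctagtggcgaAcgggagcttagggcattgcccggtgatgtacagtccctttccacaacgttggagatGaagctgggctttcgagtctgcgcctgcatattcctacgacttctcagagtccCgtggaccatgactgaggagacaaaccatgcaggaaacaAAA
Of the 22 box C/D members with a sequence in the reference, 19 (86.4%) held TGATGA with a CTGA after it on the transcribed strand, against 0 of 28 box H/ACA members and 2.11% of 5784 other reference transcripts of these lengths. On the opposite strand 0 of 22 box C/D members held that pair. ACA with 3 bases after it ended 23 of 28 box H/ACA members (82.1%), 0 of 22 box C/D members and 1.92% of the other transcripts. On the opposite strand 0 of 28 did. No member held the motif of the other class. For all 50 members with a reference sequence its length equalled the listed length.

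The tables give no counts and the depth is therefore unknown. Between 14046 and 14534 genes reached 1 TPM in a tumor library and between 12629 and 13145 in a culture library. St3gal3, the gene targeted by the hairpin, had 1.52, 1.25 and 1.83 TPM in knockdown cultures, against 9.59, 12.52 and 12.93 TPM in control cultures (log2 change -2.32, SE 0.164, limma adjusted p = 0.00689). It had 7.28, 5.87 and 5.76 TPM in knockdown tumors, against 14, 15.39 and 15.36 TPM in control tumors (log2 change -1.13, SE 0.110, limma adjusted p = 0.00954). Of the 7 epithelial and ovarian markers, Krt8, Krt18, Krt19 and Msln were present in all groups. Epcam and Pax8 averaged at most 0.367 and 0.28 TPM in any group. Wt1 averaged 0.05 and 0.00667 TPM in knockdown and control cultures. In knockdown and control tumors it averaged 1.82 and 1.39 TPM. The summed TPM of 6 leukocyte markers was 732 to 914 in knockdown tumors and 793 to 1089 in control tumors, against 0.25 to 0.68 in knockdown cultures and 0.20 to 0.39 in control cultures, where Cd3e was at 0. Most of that sum was Lyz2, at 777 ± 92.4 TPM in knockdown tumors and 861 ± 144 TPM in control tumors (SD, n = 3 each). Ptprc (27.9 ± 4.1 and 19.1 ± 1.7 TPM), Cd3e (5.11 ± 0.86 and 2.10 ± 0.81 TPM) and Cd8a (5.04 ± 0.39 and 1.76 ± 1.3 TPM) had the higher mean in knockdown tumors, given first, than in control tumors. Cd79a was low in both (0.57 ± 0.31 and 0.36 ± 0.37 TPM), and Csf1r was slightly lower with knockdown (36.2 ± 7.2 and 37.1 ± 7.6 TPM). No test of these markers is given here. The summed TPM of 4 fibroblast markers was 508 to 810 in knockdown tumors and 771 to 991 in control tumors, against at most 1.07 in any culture. In knockdown and control tumors, 3 endothelial markers summed to 25.4 to 38.8 and 36.8 to 51.8 TPM. The sums were 37.7 to 88.0 and 79.05 to 107 TPM for 5 erythroid markers. For 4 skeletal muscle markers they were 5.15 to 49.7 and 0.56 to 5.77 TPM. In cultures these sums were at most 0.23, 3.60 and 1.03 TPM. The 3 neuron markers summed to 12.05 to 18.5 TPM over all libraries. Markers of other cell types were thus present in the tumor libraries, and in bulk samples fewer cells of a type and less RNA per cell cannot be told apart.

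SnoRNA rows were sparse in every group and sparser in tumors. Of the 612 member values, 416 (68.0%) were 0: 205 of 276 box C/D values and 211 of 336 box H/ACA values. Members listed at 0 numbered 43, 42 and 41 of 51 in knockdown tumors and 39, 42 and 41 in control tumors. They numbered 25, 27 and 27 in knockdown cultures and 29, 27 and 33 in control cultures. Above 0 in a single library were 9 members, and in 6 libraries or more 11 members, 2 of them box C/D (Snord22 and Snord17) and 9 box H/ACA. Only the 139-base Snora43 row was above 0 in all 12. Members above 0 in tumors alone numbered 4 (Snord89, Snord118, Snora15 and Snora52), those in culture alone 23, and those in both 24. The culture-only members were 16 of 23 box C/D and 7 of 28 box H/ACA genes. Members together held 0.00901 to 0.0140% of all TPM in tumor libraries and 0.0394 to 0.0746% in culture libraries.

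**Figure D1:**
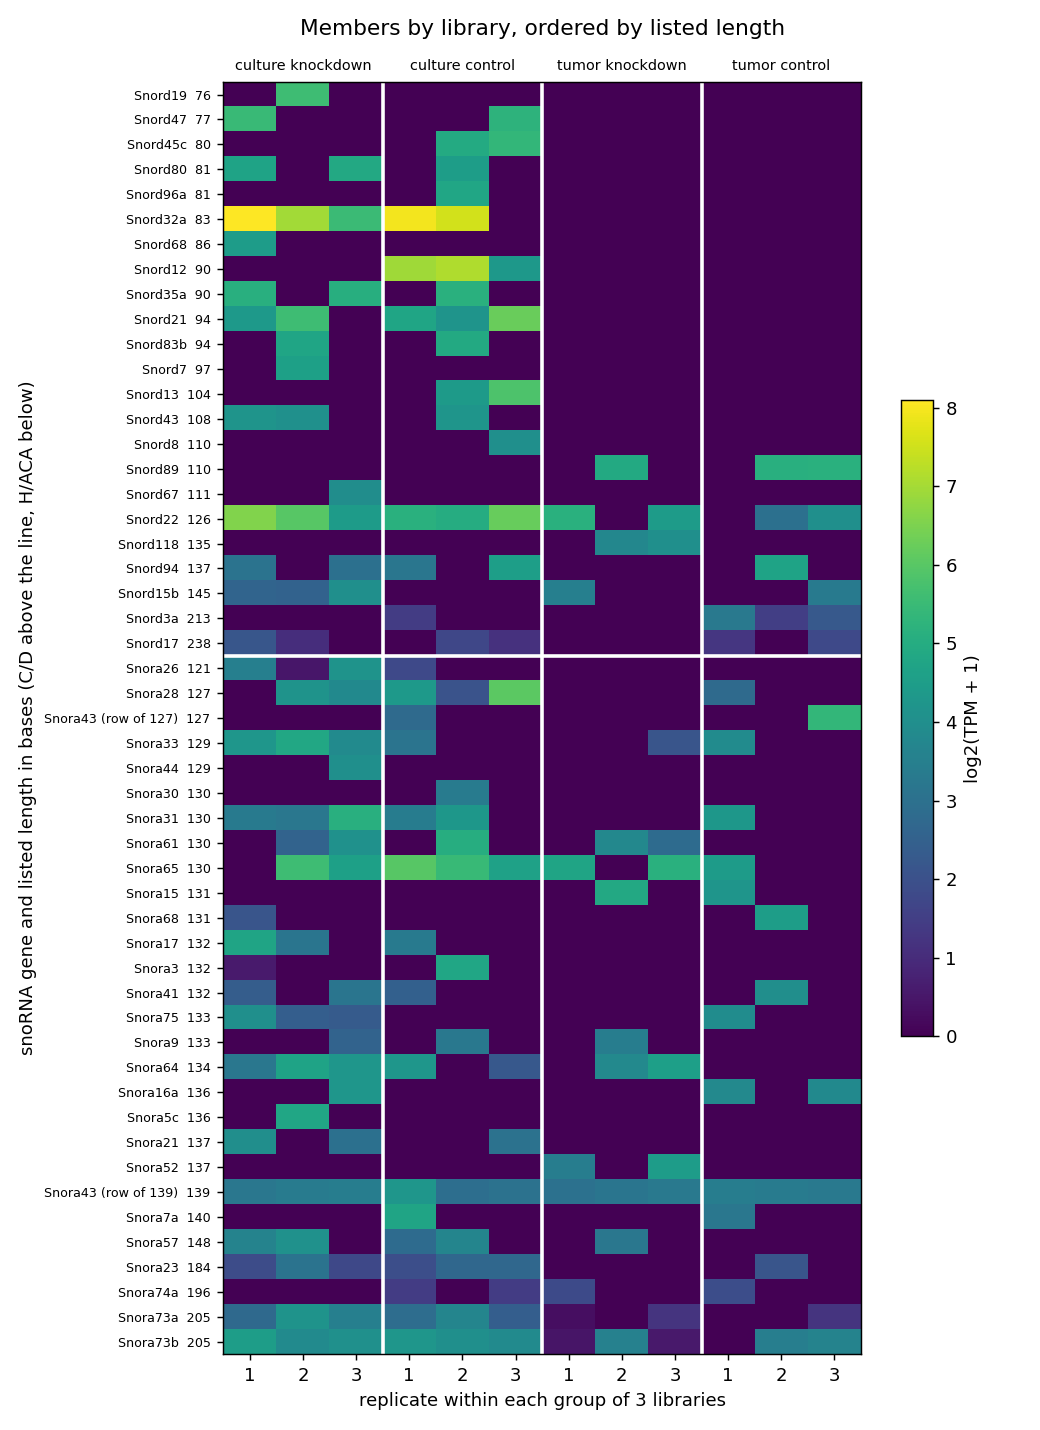
Level of each member in each library as log2(TPM + 1), by color, with knockdown left of control in culture and in tumors, box C/D above box H/ACA and each class sorted by listed length in bases. All 12 members under 100 bases, at the top, are at 0 in the 6 tumor libraries, and only the 139-base Snora43 row is filled in all 12 columns.

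The classes differed in listed length as snoRNAs are known to. Box C/D members had 76 to 238 bases (median 97) and box H/ACA members 121 to 205 bases (median 132.5). Rows at 0 throughout were shorter among box C/D, with a median of 73 bases, and of about the same length among box H/ACA, with a median of 131. Length went with detection. Among all rows with such a name, 0 of 61 under 100 bases were above 0 in any tumor library and 12 (19.7%) in some culture library. From 120 to 139 bases, 18 of 32 rows (56.2%) were above 0 in some tumor library and 22 (68.8%) in some culture library. At 140 bases or more the count was 9 of 13 (69.2%) in tumors and in culture alike.

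The 12 members under 100 bases, all box C/D, were at 0 in all 6 tumor libraries and averaged 263 TPM in sum in knockdown cultures and 350 TPM in control cultures. Their sums ranged from 106 to 417 TPM in knockdown cultures, with 3 to 6 above 0 per library, and from 171 to 482 TPM in control cultures, with 3 to 8. Members of 100 bases or more summed to 90.1 to 134 TPM in knockdown tumors and 127 to 140 TPM in control tumors. In knockdown cultures they summed to 285 to 318 TPM and in control cultures to 263 to 301 TPM, so the longer members were also lower in each tumor library than in each culture library. The shortest member above 0 was Snord89, of 110 bases, in tumors and Snord19, of 76 bases, in culture. The same split appeared in 1540 other rows under 100 bases that neither GENCODE M21 nor the deposited descriptions give as small nucleolar or Cajal body RNAs: 2 (0.130%) were above 0 in some tumor library and 71 (4.61%) in some culture library. At 140 bases or more, 184 (10.9%) and 209 (12.4%) of 1682 such rows were above 0 in tumors and in culture. A further 350 rows under 100 bases are given as such RNAs under other names, and of these 1 was above 0 in tumors and 18 in culture. Tumor and culture tables were normalized separately and each tissue has its own libraries, so tissue, cell makeup and library preparation cannot be told apart in these levels, and no test was made of them.

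**Figure D2:**
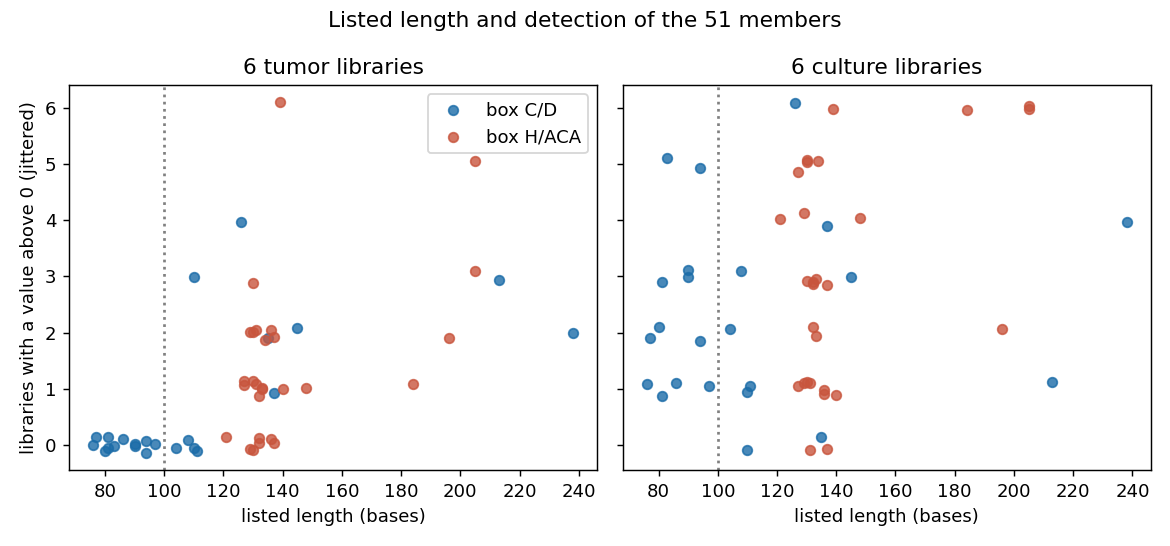
Listed length in bases against the number of libraries, of 6, in which a member was above 0, for tumors and for culture, with small vertical jitter and the dotted line at 100 bases. To the left of the line all 12 box C/D members sit at 0 libraries in tumors and between 1 and 5 in culture, while box H/ACA members start at 121 bases.

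The summed levels of both classes overlapped between knockdown and control in each tissue. Box C/D members summed to 542, 352 and 164 TPM in knockdown cultures and to 442, 553 and 339 TPM in control cultures, and these groups overlapped. The mean was 353 ± 189 TPM with knockdown and 445 ± 107 TPM in controls (SD, n = 3 each; exact permutation test, two-sided p = 0.6, where 3 against 3 libraries cannot give less than 0.1). Its direction rests on 1 library, since without knockdown culture 3 the difference was 2.58 TPM instead of -91.9 TPM. Box H/ACA members summed to 159, 233 and 230 TPM in knockdown cultures and to 219, 193 and 132.6 TPM in control cultures. The means were 207 ± 41.9 and 182 ± 44.4 TPM with knockdown and in controls (exact permutation p = 0.5). This difference of 25.95 TPM was 1.49 TPM without control culture 3 and 50.1 TPM without knockdown culture 1.

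In tumors the sums were lower and again overlapped. Box C/D members summed to 44.7, 41.3 and 35.9 TPM in knockdown tumors and to 10.1, 67.2 and 65.2 TPM in control tumors (means 40.6 ± 4.43 and 47.5 ± 32.4 TPM, SD, n = 3 each; exact permutation p = 0.9). Without control tumor 2 the difference was 2.99 TPM, and without control tumor 3 it was 1.95 TPM, against -6.88 TPM with all libraries. Box H/ACA members summed to 45.4, 90.4 and 98.5 TPM in knockdown tumors and to 125, 59.6 and 75.0 TPM in control tumors (means 78.1 ± 28.6 and 86.6 ± 34.2 TPM; exact permutation p = 0.9). This difference, -8.46 TPM, was 7.88 TPM without knockdown tumor 1 and 10.8 TPM without control tumor 1. The number of members at 0 averaged 26.3 ± 1.15 in knockdown cultures and 29.7 ± 3.06 in control cultures (exact permutation p = 0.3). In tumors it averaged 42.0 ± 1.00 with knockdown and 40.7 ± 1.53 in controls (exact permutation p = 0.5).

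**Figure D3:**
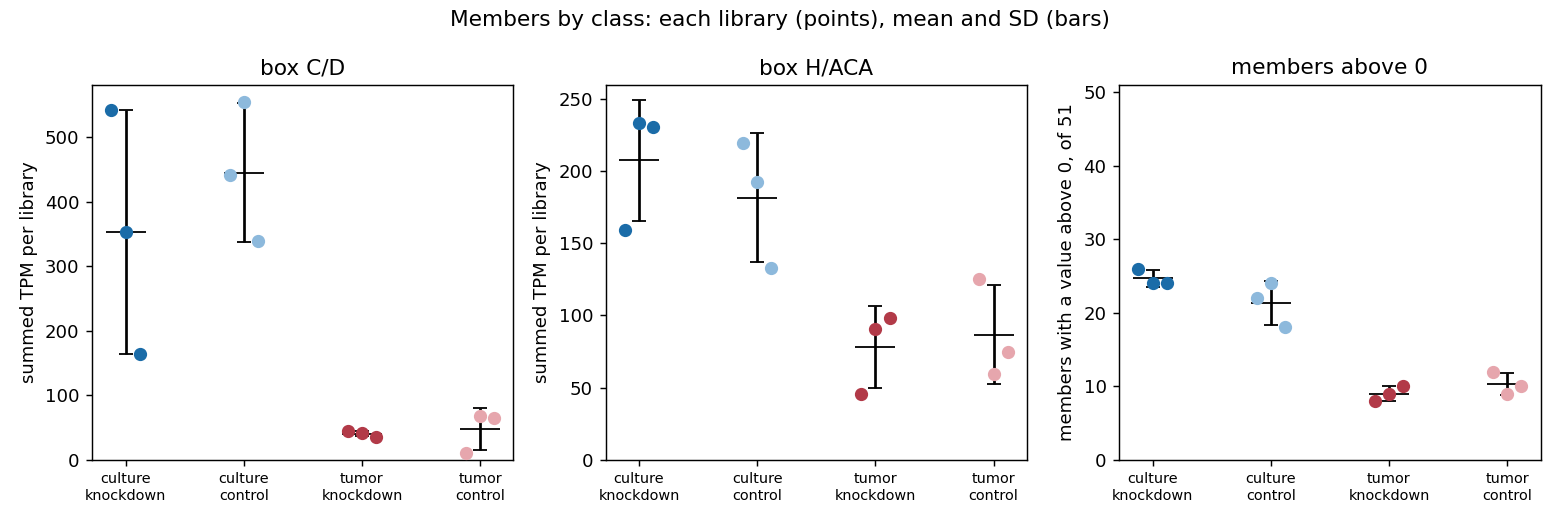
Summed TPM of box C/D and of box H/ACA members and the number of members above 0, of 51, with a point per library, the group mean as a dash and the SD as a bar (n = 3 each). Knockdown and control overlap in each panel and tissue, or meet, as at 24 members above 0 in culture.

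Of the members, 46 averaged 1 TPM or more in a culture group and were tested there, and 26 were tested in tumors. With limma on log2(TPM + 1) and adjustment over all genes tested, 0 of 46 were called in culture, where 0.0296% of all 13492 genes were called. At an unadjusted p under 0.05 there were 4 of 46, against 3.42% of all genes. In tumors 0 of 26 were called, against 1.51% of 14915 genes, and 1 of 26 passed the unadjusted threshold, against 18.7%. The standard error of a member's log2 change had a median of 1.27 in culture and 1.19 in tumors, against 0.141 and 0.119 over all genes, so only very large changes could pass. The median log2 change of the tested members was 0.43 in culture, against 0.02 over all genes, and -0.77 in tumors, against -0.05. A member at 0 in 1 group was tested only through the group where it was high, so these medians are a description.

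For the difference between the tumor and the culture effect of the knockdown, 51 members were tested over all 12 libraries. Of these 1 was called in the fit of all libraries (limma adjusted p under 0.05), against 0.754% of 15381 genes, and 4 passed the unadjusted threshold, against 11.1%. The called member was Snord12, whose levels are given next.

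Snord12 had 0, 0 and 0 TPM in knockdown cultures, against 121.95, 138.28 and 19.02 TPM in control cultures, and was at 0 in all 6 tumor libraries. Every control culture was above every knockdown culture, and no fold is given against a group listed at 0. The log2(TPM + 1) change in culture was -6.13 (SE 0.789, limma adjusted p = 0.448, unadjusted p = 0.000431), and all its tumor values were equal. The difference, the tumor effect minus the culture effect, was 6.13 (SE 0.833, limma adjusted p = 0.0129, and 5.62e-09 to 0.107 over the alternatives, of which 1 ended the call). No tumor effect could be measured, since the row is 0 throughout in tumors, as are all members under 100 bases there. The difference is thus the culture change with its sign turned and does not show that the effect differs between the tissues. In culture the adjusted p passed the threshold at 1.41e-05 without control culture 3, the lowest of the controls, at 0.0132 with a pseudocount of 0.1 and at 0.00423 with all 4 groups in one fit, and over the alternatives it ran up to 1. Snord12 entered the culture test only through the control cultures. These passes are thus a description and no support. The host gene of Snord12, Zfas1, did not follow it. Zfas1 had 262, 246 and 285 TPM in knockdown cultures and 258, 242 and 229 TPM in control cultures (log2 change 0.12, SE 0.078, limma adjusted p = 1.0).

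Members at 0 in all 3 libraries of one group and at 1 TPM or more in all 3 of the other were few. Each of them entered its test only through the group where it was high, so any adjusted p under the threshold is a description. In culture 1 of 46 was lower with knockdown in this way (Snord12), against 0.0445% of all genes tested, and 2 of 46 were higher (Snord15b and Snora75), against 0.0741%. Among tested rows of 64 to 238 bases, which share the sparse values of snoRNAs and include them, the shares were 0.626% and 1.25%. In tumors 1 of 26 was lower with knockdown (Snord3a), against 0.0201% of all genes and 0.761% of the 394 tested rows of these lengths, and 0 of 26 were higher, against 0.0335% of all genes. Members whose groups did not overlap numbered 4 of 46 in culture (these 3 and Snora33), against 7.71% of all genes and 4.38% of the tested rows of these lengths, and 1 of 26 in tumors, against 24.7% and 5.08%.

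Snord15b, a U15 snoRNA carried by the ribosomal protein gene Rps3, had 5.07, 4.87 and 15.5 TPM in knockdown cultures, against 0, 0 and 0 TPM in control cultures. Snord15a (148 bases), also in Rps3, was at 0 in all libraries. The log2 change of Snord15b in culture, 3.07 (SE 0.396), did not pass the test (limma adjusted p = 0.156, and 0.0132 to 1 over the alternatives, with 0.0343 without knockdown culture 3). In tumors Snord15b had 10.2, 0 and 0 TPM with knockdown and 0, 0 and 9.03 TPM in controls, so the groups overlapped. Rps3 averaged 2384 ± 157 TPM in knockdown cultures and 2292 TPM in control cultures (log2 change 0.05, SE 0.062, limma adjusted p = 1.0).

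Snora75, in the nucleolin gene Ncl, had 15.2, 4.38 and 4.02 TPM in knockdown cultures, against 0, 0 and 0 TPM in control cultures (log2 change 2.93, SE 0.439, limma adjusted p = 0.303, and 0.0216 to 0.936 over the alternatives). In tumors it had 0, 0 and 0 TPM with knockdown and 14.2, 0 and 0 TPM in controls. The direction thus differed between the tissues, but the difference of the effects was not called (limma adjusted p = 0.261). Ncl averaged 1054 ± 84.3 TPM in knockdown cultures and 997 TPM in control cultures (log2 change 0.08, SE 0.095, limma adjusted p = 1.0).

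Snord3a is a gene for U3, the box C/D snoRNA needed for early cleavages of pre-ribosomal RNA. It had 0, 0 and 0 TPM in knockdown tumors, against 8.67, 1.85 and 3.78 TPM in control tumors. The groups did not overlap, but the log2 change of -2.35 (SE 0.414) did not pass the threshold (limma adjusted p = 0.0519). The adjusted p was 0.0333 without control tumor 1 and 0.0282 without control tumor 2, and ran from 0.0125 to 0.192 over the alternatives. Snord3a was tested in tumors only through the control tumors, so the values under the threshold are a description. In culture it was at 0 in all knockdown libraries and in 2 of 3 control libraries, with 1.70 TPM in control culture 1. The other U3 row, Snord3b4 (216 bases), was at 0 in all libraries, and U3 has further near-identical copies, so how reads were shared among copies is uncertain.

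**Figure D4:**
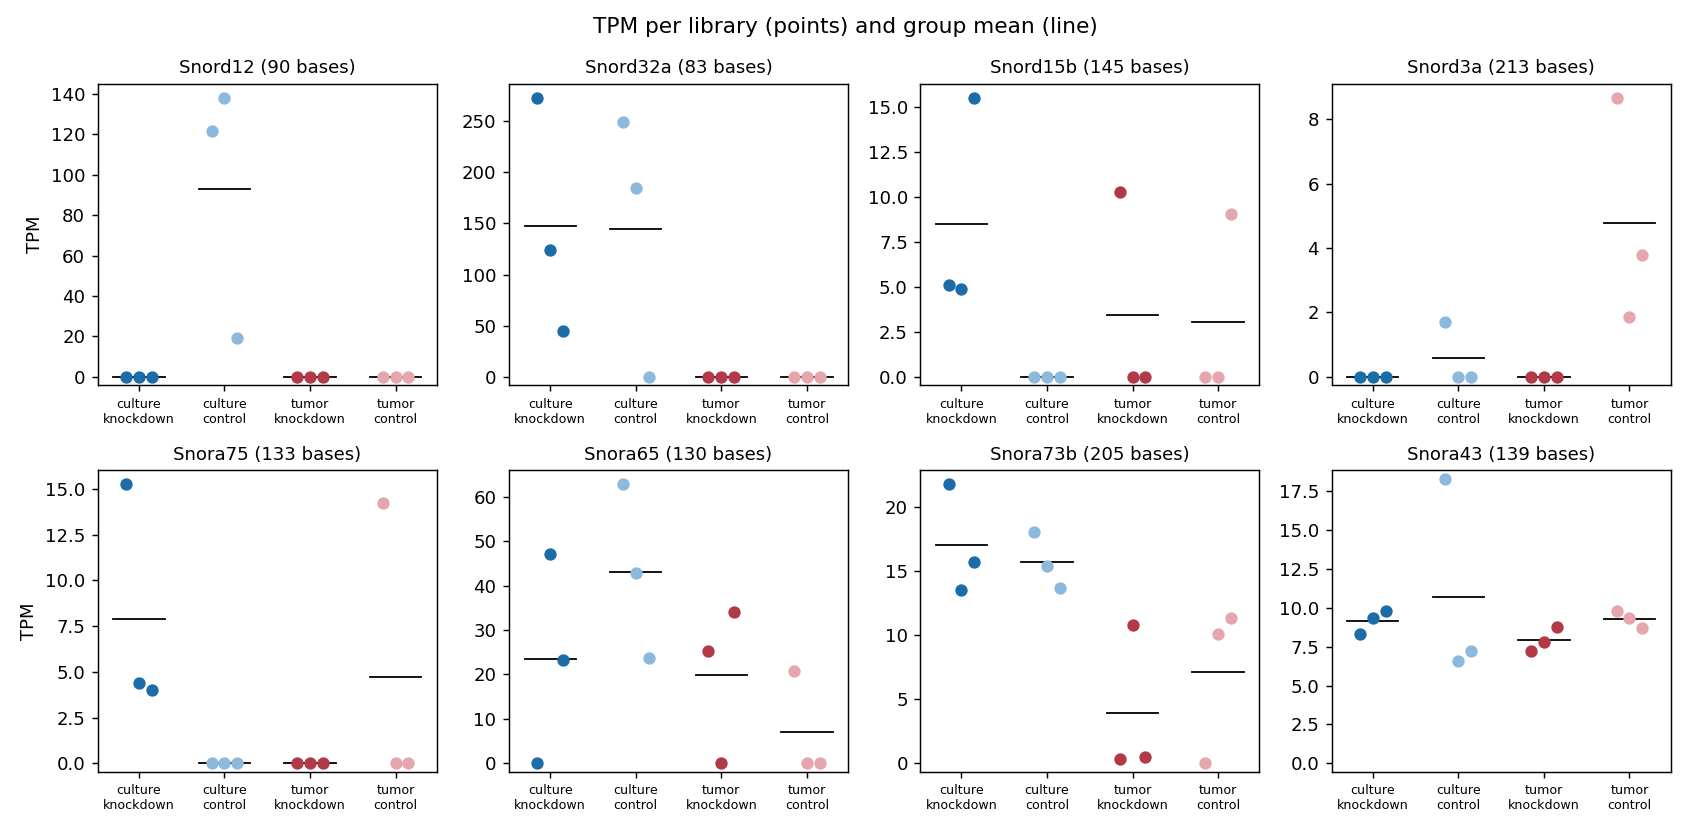
TPM of 8 members in each library (points) with the group mean (line), knockdown left of control in culture and in tumors, each panel on its own linear scale. Snord12 is above 0 in the 3 control cultures alone, Snord15b and Snora75 are at 0 in control cultures, Snord3a is at 0 in knockdown tumors, and the 139-base Snora43 row lies between 6.60 and 18.3 TPM throughout.

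The other members with the smallest p-values in culture had zeros in some libraries of a group that was otherwise above 0. Snora33, in Rps12, had 18.0, 27.7 and 13.6 TPM in knockdown cultures, against 7.73, 0 and 0 TPM in control cultures (log2 change 3.28, SE 0.956, limma adjusted p = 1.0), and it was called at 0.00431 without control culture 1. Snord45c had 0, 0 and 0 TPM in knockdown cultures, against 0, 29.8 and 39.9 TPM in control cultures, and was likewise called without control culture 1 (limma adjusted p = 0.000198). In both a single control library, the one at odds with its group, decided the call, so these calls are a description. Over the alternatives the adjusted p of both ran up to 1. Snora74a, the next box H/ACA member by p, had 0, 0 and 0 TPM in knockdown cultures and 1.72, 0 and 1.74 TPM in control cultures. Its limma adjusted p was 0.904 or more in every alternative.

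Tumors gave the same kind of pattern. Snord118 (U8, needed for processing of the large-subunit ribosomal RNA) had 0, 12.3 and 15.3 TPM in knockdown tumors and 0 in all control tumors (log2 change 2.59, SE 1.15, limma adjusted p = 0.313). Snora64 had 0, 12.9 and 22.99 TPM, and Snora52 9.75, 0 and 21.3 TPM, in knockdown tumors, with 0 in all control tumors (limma adjusted p = 0.315 and 0.321). Snora16a had 0 in all knockdown tumors, against 13.1, 0 and 13.3 TPM in control tumors (limma adjusted p = 0.312). Each of these 4 members passed the threshold when the library at odds with its group was left out: Snord118 (limma adjusted p = 0.00178) and Snora64 (0.00754) without knockdown tumor 1, Snora52 (0.0165) without knockdown tumor 2, and Snora16a (0.000434) without control tumor 2. Over the alternatives their adjusted p ran up to 0.602, 0.606, 0.597 and 0.587, in that order. The library left out was picked here by its own value, so these passes are a description and no support. Each of the 4 was also tested only through the group where it was above 0. Snord17 was at 0 in knockdown tumors and had 1.41, 0 and 2.45 TPM in control tumors (limma adjusted p = 0.272).

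Snord32a was the highest member. It is 1 of the snoRNAs of Rpl13a, a gene whose introns carry several box C/D snoRNAs, and guides ribosomal RNA methylation. It had 273, 124 and 44.7 TPM in knockdown cultures and 250, 184 and 0 TPM in control cultures, and 0 in all tumors. Its 83 bases are printed above. Rpl13a stood between 3881 and 6261 TPM in all 12 libraries, and its lowest and highest libraries differed far less than those of the snoRNA. Snord35a, of the same host, had 33.5, 0 and 32.6 TPM in knockdown cultures and 0, 34.1 and 0 TPM in control cultures.

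Snord22 (U22, from the noncoding gene Snhg1 and known for its part in 18S ribosomal RNA processing) was the box C/D member detected most widely, in 10 of 12 libraries. It had 92.7, 62.8 and 20.8 TPM in knockdown cultures and 34.4, 31.4 and 72.8 TPM in control cultures. In tumors it had 34.4, 0 and 20.6 TPM with knockdown and 0, 6.93 and 15.4 TPM in controls. The groups overlapped in both tissues. Snord21, in Rpl5, had 19.6, 46.8 and 0 TPM in knockdown cultures and 26.03, 17.2 and 75.0 TPM in control cultures. Snord89 was the highest box C/D member found in tumors alone, with 0, 28.9 and 0 TPM in knockdown tumors and 0, 33.5 and 34.5 TPM in control tumors. Snord13 (U13, a guide for acetylation of 18S ribosomal RNA) was at 0 in knockdown cultures and had 0, 20.3 and 56.6 TPM in control cultures.

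Snora65, in Rpl12, was the highest box H/ACA member. It had 0, 47.1 and 23.3 TPM in knockdown cultures and 62.8, 42.8 and 23.7 TPM in control cultures, and in tumors 25.3, 0 and 34.1 TPM with knockdown and 20.9, 0 and 0 TPM in controls. Snora28, in Eif5, had 0, 17.0 and 13.3 TPM in knockdown cultures and 19.9, 3.20 and 65.3 TPM in control cultures. Snora31, in Tpt1, had 8.92, 8.32 and 33.3 TPM in knockdown cultures and 9.61, 18.6 and 0 TPM in control cultures. Knockdown and control overlapped in culture for all 3.

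The U17 rows were steadier in culture. Snora73b had 21.8, 13.5 and 15.8 TPM in knockdown cultures and 18.1, 15.4 and 13.7 TPM in control cultures (log2 change 0.09, SE 0.185, limma adjusted p = 1.0). Snora73a had 5.86, 16.7 and 10.3 TPM in knockdown cultures and 6.47, 11.9 and 4.41 TPM in control cultures (log2 change 0.47, SE 0.443, limma adjusted p = 1.0). In tumors Snora73b had 0.38, 10.8 and 0.48 TPM with knockdown and 0, 10.1 and 11.4 TPM in controls, and Snora73a stood between 0 and 1.31 TPM. The copies thus did not keep 1 ratio, and at the identity shown above their split is uncertain. Snora23, in Ipo7, was above 0 in all 6 cultures, at 2.40 to 7.57 TPM.

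The 139-base Snora43 row was the one member above 0 in every library, and had the lowest coefficient of variation, among members averaging 1 TPM or more in the group, in knockdown cultures, knockdown tumors and control tumors, but not in control cultures (61.4%, against 14.1% for Snora73b). It had 8.33, 9.34 and 9.82 TPM in knockdown cultures and 18.3, 6.60 and 7.21 TPM in control cultures. It had 7.20, 7.80 and 8.75 TPM in knockdown tumors and 9.83, 9.33 and 8.70 TPM in control tumors (log2 change -0.21, SE 0.103, limma adjusted p = 0.328). The 127-base row, whose sequence lies wholly inside it, had 5.89 TPM in control culture 1 and 40.3 TPM in control tumor 3 and was at 0 in the other libraries. Reads inside the shared bases fit both rows, so the 2 values cannot be read as separate genes.

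Spread between replicates was measured as the coefficient of variation (CV) over the 3 libraries of a group, for rows with a group mean of at least 1 TPM. The median CV of members was 93.9% in knockdown cultures (36 members), against 132% in control cultures (35 members). It was 129% in knockdown tumors (14 members), against 173% in control tumors (20 members). A CV of 173.2% arises when a single library of 3 is above 0. By class, the median was 106% for box C/D and 90.2% for box H/ACA in knockdown cultures, against 112% and 153% in control cultures. In knockdown tumors it was 134% (4 box C/D members) and 129% (10 box H/ACA members). In control tumors it was 99.6% (6 members) and 173% (14 members). Neither class was thus the less variable in both groups of a tissue. The host genes of the members had median CVs of 5.90% in knockdown cultures, 6.09% in control cultures, 5.84% in knockdown tumors and 5.14% in control tumors. All rows with such a mean had medians from 9.70 to 11.98%, and other rows of 64 to 238 bases 173.2% in each group, so the members' median was below that of this last set in 3 of 4 groups and equal to it in control tumors. It was above that of the hosts in all 4 groups, but the levels were unlike. The median of the group means was 167 to 264 TPM for hosts and 6.0 to 9.1 TPM for members. Rows of 200 bases or more averaging 1 to 100 TPM had median CVs of 10.2 to 12.8%. No test was made of these medians.

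**Figure D5:**
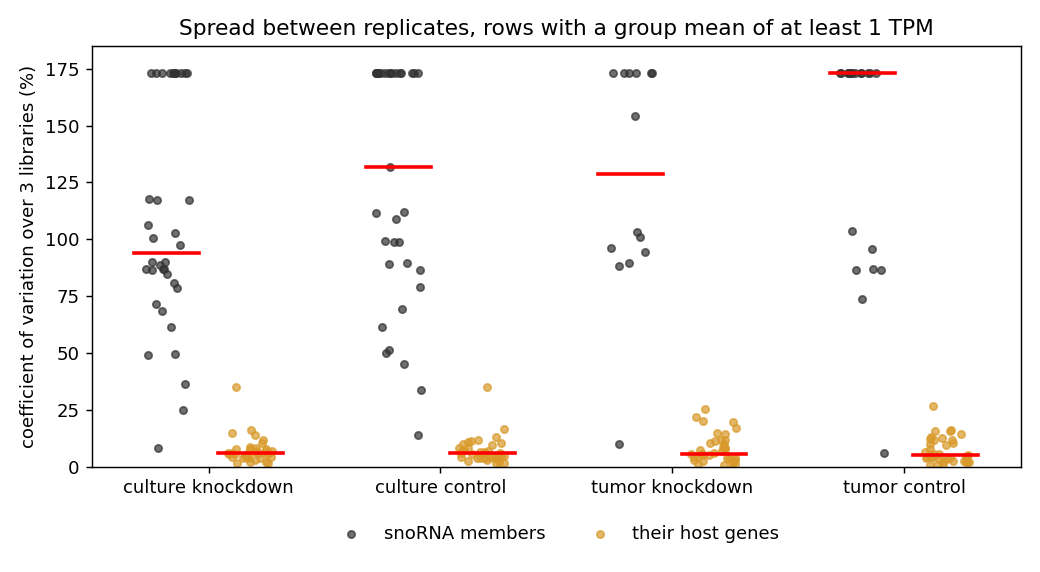
Coefficient of variation over 3 libraries, in percent, of snoRNA members (black) and of their host genes (orange) in each group, for rows with a group mean of at least 1 TPM, with red lines at the medians. Members have medians of 93.9 to 173.2% and hosts of 5.14 to 6.09%, and the row of points at the top is members above 0 in 1 library of 3.

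By GENCODE M21, 44 members lie on the strand of a host gene, in 38 hosts, and 7 lie in none. Of the 44, 29 have a host whose gene type there is protein coding and 15 a host of another type. The hosts of another type include Cct6a, host of Snora15, so another type need not mean a gene without a protein. Ribosomal protein genes hold 15 of the 44. In 30 cases the snoRNA overlaps an exon of some host transcript, in most of them only of transcripts that keep an intron. Reads of the host can therefore fall on the snoRNA row. Snord8, Snora23, Snora57, Snora73a and Snora73b also overlap an antisense gene, and since strand use in counting is not given, reads of the partners cannot be told apart. Hosts were expressed well above their snoRNAs on the TPM scale, which is per length: the host mean over 12 libraries exceeded the member's in 43 of 44 cases, by a median of 48.3-fold. The exception was Snord89, in the noncoding Gm15832, whose mean over the 12 libraries was 0.06 TPM, against 8.08 TPM for the snoRNA. The median host mean was 230 TPM for members and 211 TPM for the 58 rows at 0 throughout with a host. Of 37 hosts tested, 0 were called in culture, against 0.0296% of all genes, and 0 in tumors, against 1.51%. For the difference between tissues 1 of 37 was called, Snhg12 (log2 difference -0.68, SE 0.135, limma adjusted p = 0.0477), against 0.754% of all genes.

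The proteins that build snoRNA particles were followed with lists of genes. The box C/D core proteins (Fbl, Nop56, Nop58 and Snu13) summed to 1417 to 1652 TPM in knockdown cultures and 1340 to 1595 TPM in control cultures, and to 563 to 611 TPM in knockdown tumors and 539 to 601 TPM in control tumors. The box H/ACA core proteins (Dkc1, Gar1, Nhp2 and Nop10) summed to 889 to 1076 TPM in knockdown cultures and 846 to 1014 TPM in control cultures, and to 335 to 374 TPM in knockdown tumors and 304 to 354 TPM in control tumors. In both lists 0 of 4 genes were called in culture, in tumors or for the difference. Fbl, the methyltransferase, had log2 changes of 0.05 in culture and 0.13 in tumors (SE 0.083 and 0.062, limma adjusted p = 1.0 and 0.312). Dkc1, the pseudouridine synthase, had log2 changes of 0.05 in culture and 0.09 in tumors (SE 0.099 and 0.122, limma adjusted p = 1.0 and 0.704).

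Of 17 tested assembly and maturation factors and 18 RNA polymerase I and nucleolar factors, 0 were called in any of the 3 comparisons. Their median log2 changes were 0.01 and 0.06 in culture, against 0.02 over all genes, and 0.01 and -0.05 in tumors, against -0.05. Among them Ruvbl1, an ATPase of particle assembly, had the smallest unadjusted p in culture (log2 change -0.25, SE 0.088, limma adjusted p = 1.0), and Polr1b, a subunit of RNA polymerase I, in tumors (log2 change -0.26, SE 0.076, limma adjusted p = 0.139). Of the noncoding snoRNA host genes 0 of 17 were called in culture, against 0.0296% of all genes, and 0 of 18 in tumors, against 1.51%. Their median log2 change was 0.12 in culture, against 0.02 over all genes, and -0.14 in tumors, against -0.05. For the difference 1 of 18 was called, Snhg12, against 0.754% of all genes. The median difference was -0.27, against -0.06 over all genes. Snhg12, the host with the call above, had log2 changes of 0.14 in culture and -0.54 in tumors (SE 0.077 and 0.107, limma adjusted p = 1.0 and 0.0637).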

How the data were processed

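The authors deposited 1 table per library with gene identifier, name, description, length and TPM values to 2 decimals, per the file headers. The submitters' processing notes list the build GRCm39 and the tools HISAT, RSEM and fastp, without versions or roles. TPM divides by length, so equal read numbers give higher values on shorter rows, and RSEM shares reads between similar or overlapping rows by estimation. TPM keeps no depth, so no counting interval is given. Lengths are the deposited ones.

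Groups and replicate numbers came from the sample titles. Rows averaging 1 TPM or more in any group were tested with limma 3.58.1 (R 4.3.3; trended, robust) on log2(TPM + 1), per tissue, and for the difference between tissues on the 12 libraries and 55416 shared identifiers. Fold changes on this scale understate the change of low rows. The tests were two-sided, p-values were adjusted by Benjamini-Hochberg over the whole table, and 0.05 was the threshold for a call. Class sums were compared with exact permutation tests over libraries, two-sided, in scipy 1.17.1. The procedure was also tested on simulated data.

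Host genes, class motifs and sequences came from GENCODE M21 by gene identifier. Of 20 hosts listed by hand, 20 matched the annotation. Members named are those called, the 6 highest per class, those at 0 in one group and at least 1 TPM in all libraries of the other, the most even, those with the lowest maxima, the 3 with the smallest p per class and tissue, and the U3, U8, U13 and U17 genes. No row named Snord115 or Snord116 and a number met the rule. The members and the gene lists were chosen with earlier results of these data known. Alternatives were other pseudocounts, filters, scalings and member rules, a replicate block, a fit of all 4 groups and leaving out each library. Array weights, sums without the highest member, the ratio limit for pairs of equal length and the split of other short rows by annotation were added after seeing the data.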

Additional observations from a re-analysis of the deposited data

Results flagged for a closer look

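Snord12 passed the test of the difference between the knockdown effects in tumors and in culture (limma adjusted p = 0.0129, log2 difference 6.13, tumor effect minus culture effect). All 6 tumor libraries and all 3 knockdown cultures were at 0, and the 3 control cultures had 121.95, 138.28 and 19.02 TPM. It entered the test through the control cultures alone, and as the 12 members under 100 bases were at 0 in all tumor libraries, no tumor effect could be measured. The difference equals the culture change with its sign turned and does not show that the effect differs between tissues.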

How the results depend on the processing

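Of 108 recomputed values for the summaries, 82 kept their direction or, for counts of calls, stayed within 1.5 times, although sizes of sums moved more. Members called in culture, 0 as reported, were 3 with a pseudocount of 0.1 (Snord12, Snord15b and Snora75), 1 with array weights, 1 with all 4 groups in one fit, and 0 to 3 on leaving out 1 library. Over all genes 4 calls became 11, 8, 8 and 7 to 15, and 8 with the filter of 1 TPM in 3 libraries. In tumors, 0 as reported became 1 with a pseudocount of 0.1, 1 with the filter of 1 TPM in 3 libraries, 1 with array weights and 1 with all 4 groups in one fit, Snord3a each time, and 0 to 3 on leaving out 1 library. Over all genes 225 calls became 266, 330, 795, 599 and 38 to 229, and 82 with no filter. For the difference, 1 as reported was 1 to 3 on leaving out 1 library, against 116 over all genes as reported and 67 to 164 on leaving out 1 library, 26 with a pseudocount of 0.1, 183 with quantile normalization and 259 with array weights. The box C/D difference in culture was 12.5 TPM over members of at least 1 TPM in all 6 libraries, which was Snord22 alone. Over all box C/D members it was -187 to 2.58 TPM on leaving out 1 library, and that of box H/ACA 1.49 to 50.1 TPM. In tumors the box C/D difference was 6.15 TPM without Snord89, the highest box C/D member there, so its direction rests on that row. It was -25.6 to 2.99 TPM on leaving out 1 library, and that of box H/ACA -21.9 to 10.8 TPM. The causes were not tested. In tumors a median over members was 0 or gave no value, and no box C/D member reached 1 TPM in all 6 libraries.

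Replicate numbers are shared by the groups, but same-numbered libraries did not deviate together (correlations -0.0597, -0.0651 and -0.155 in culture, -0.144, -0.0169 and 0.0489 in tumors). The numbers were therefore not used as pairs in the main fits. Such correlations cannot exclude that same-numbered samples were handled together, and the labels do not say. With the replicate block 0 members were called in culture, 0 in tumors and 0 for the difference, where Snord12 had an adjusted p of 0.107. Over all genes the block left 4, 2 and 0 calls, so the call of Snhg12 for the difference was lost as well. The block left the differences of sums at -91.9 and 25.95 TPM (box C/D and box H/ACA, culture) and -6.88 and -8.46 TPM (tumors), and those of members at 0 at -3.33 and 1.33. For St3gal3 in tumors the adjusted p with the block was 0.0768. Values to 2 decimals and unknown depth limit what can be said of rows at 0.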

Other observations

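Of 37 pairs of members with the same listed length in the same library and a ratio of at most 10, a limit set after seeing the data, 6 had a ratio within 1% of a whole number and the others did not. The share that chance gives was not computed. In knockdown culture 1 Snora17 had 25.4 TPM and Snora41 4.23 TPM, a ratio of 6, and Snora21 had 14.9 TPM and Snord94 7.43 TPM, a ratio of 2. In knockdown culture 3 Snord94 and Snora21 both had 6.88 TPM. In control culture 2 Snora31 had 18.6 TPM and Snora30 9.28 TPM, and in control culture 3 Snord94 had 22.01 TPM and Snora21 7.34 TPM. Snord35a, of 90 bases, was listed at 33.5 and 32.6 TPM in knockdown cultures 1 and 3 and at 34.1 TPM in control culture 2, and at 0 elsewhere. These values are given as they stand, with no count of reads inferred.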
